A study of Mus musculus with 32 samples.

Results

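Mouse presomitic mesoderm (PSM) cells in culture were compared between 2 successive cycles of the segmentation clock within a single time course, labelled Ex4. The first window held the 7 libraries taken from 155 to 245 min and the second window the 6 libraries from 292 to 385 min, together 13 of the 32 libraries of the series. The windows were chosen by the measured level of Hes7, the core gene of the clock, so that both cover the rise and fall of 1 peak and lie about 1 Hes7 period apart. Hes7 itself is therefore only described here. It was in the fit with the other genes, but no test of it counts as evidence. The Ex4 libraries at 260, 275 and 405 min lay outside both windows. The other time course, Ex5, gave a like comparison in other dishes with 12 libraries, whose windows lay somewhat earlier on the Hes7 cycle.

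All groups came from the same mouse epiblast stem cell line, AES0204, carrying a Hes7 luciferase reporter, and all had the same treatment. PSM was induced on fibronectin in CDMi medium with the TGF-β receptor inhibitor SB431542 (10 µM), the BMP receptor inhibitor LDN193189 (250 nM), the GSK3 inhibitor CHIR99021 (10 µM), which activates Wnt signalling, and bFGF (20 ng/ml). After 30 h CHIR99021 was lowered to 1 µM while the other agents stayed the same. Per course, 1 dish was followed in a luminometer and 16 others were frozen, each at its own time. The labels do not say from which event the minutes are counted, nor whether the reporter line is 1 clone. The series was made to find components of the mouse segmentation clock.

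The segmentation clock is an oscillator in the PSM of the embryo that times the formation of somites, the precursors of vertebrae and trunk muscle. Hes7 encodes a repressor that shuts off its own gene, and the delay in this loop sets the rhythm. Cells enter the PSM from the tailbud, stay posterior under Wnt and FGF signals, and turn into somites as those signals fade. Epiblast stem cells are epithelial and pluripotent, so cells that become mesoderm lose E-cadherin and the pluripotency factors and take on mesenchymal genes.

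Depth was similar in both windows, with 19341433 to 29528175 counts per library in the first (median 24402747) and 19257945 to 25997373 in the second. Levels are given as CPM, read counts scaled to a common library total after correction for composition. The PSM identity in the labels was checked against defining genes. The T-box factors T and Tbx6 stood at medians of 651 and 406 CPM in the first window. The somite genes Mesp2, Ripply2 and Uncx and the pluripotency gene Nanog did not pass the expression filter, and their highest value in any of the 13 libraries was 0.465 CPM. Other epiblast genes did pass it. Means over the 13 libraries were 57.7 CPM for Pou5f1, 73.4 for Cdh1, 36.0 for Epcam and 28.6 for Sox2. Of the somite markers, Aldh1a2 had a mean of 61.5 CPM and Meox1 of 1.88 CPM. The summed level of 10 endoderm markers ran from 4.77 to 6.70 CPM in the first window and from 5.92 to 6.76 CPM in the second. For 17 markers of lateral, intermediate and vascular mesoderm the sums were 13.2 to 16.3 and 11.3 to 14.8 CPM, and for 7 notochord markers 14.0 to 17.3 and 12.5 to 16.5 CPM. Among 17 neural markers, Olig3 was at 0 in all 13 libraries and the sums, carried mainly by Nkx1-2, a gene that the tailbud also expresses, were 419 to 487 and 367 to 413 CPM. Their part in the results below was not tested.

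Hes7 traced the cycle that set the windows. Within the first window Hes7 climbed from 123 CPM at 155 min to 284 CPM at 215 min and was back at 231 CPM at 245 min. Just outside it stood at 168 CPM at 260 min and 153 CPM at 275 min. In the second window it went from 188 CPM at 292 min to 278 CPM at 345 min and 207 CPM at 385 min, and the next library, at 405 min, had 170 CPM. The mean times of the windows were 137 min apart, close to the Hes7 period fitted over both courses. The match is approximate, since the first window starts lower on the cycle than the second. The mean log2 difference of Hes7 between the windows was 0.07 ± 0.14 (SE), and without the library at 155 min it was -0.033.

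**Figure D1:**
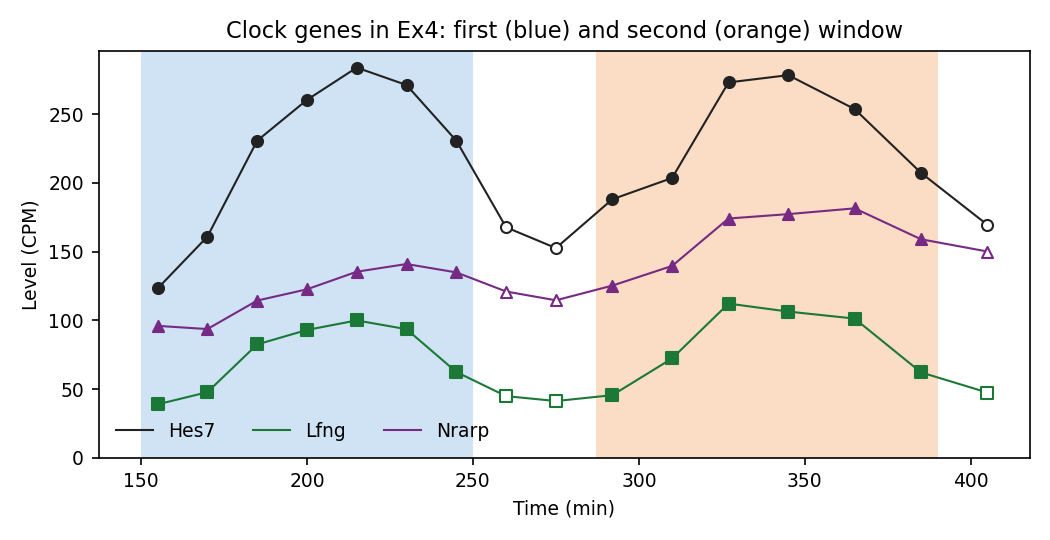
Levels in CPM of Hes7, Lfng and Nrarp against time in the 16 Ex4 libraries, with the first window shaded blue and the second orange and libraries outside the windows as open symbols. Hes7 peaked at 284 CPM in the first window and 278 CPM in the second, while Nrarp was higher in the second window.

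Of 4 other clock genes described here, Lfng, Hes1, Hes5 and Nrarp, the test between the windows passed for Nrarp. Nrarp, a Notch target that feeds back on the Notch receptor complex, spanned 93.7 to 141 CPM (median 123) in the first window and 125 to 181 CPM (median 167) in the second. The ranges overlapped at the edges, and the gene rose by 0.42 ± 0.09 on the log2 scale (adjusted p = 0.00134, edgeR's quasi-likelihood test with Benjamini-Hochberg adjustment over all genes tested). Lfng, the glycosyltransferase that modifies Notch, had 38.9 to 100 CPM and then 45.6 to 112 CPM, and its log2 difference of 0.18 ± 0.20 did not pass (adjusted p = 0.516). Hes1 and Hes5, further Hes repressors, had differences of 0.16 ± 0.18 and 0.11 ± 0.16 and did not pass either. The luciferase reporter row of the table, added to the named genes after the table had been seen, changed from 15.2 ± 2.81 to 18.0 ± 2.98 CPM (SD, n = 7 and 6), a log2 difference of 0.25 ± 0.11 that did not pass (adjusted p = 0.0843). With the library at 200, 230 or 292 min left out, the reporter passed, at 0.30, 0.30 and 0.32. These genes cycle within each window, and that cycling is part of their spread. When cosine and sine terms of the clock were added to the fit, the reporter passed at 0.25 (adjusted p = 0.00157), Lfng at 0.21 (adjusted p = 0.00194) and Hes1 at 0.18 (adjusted p = 0.0452). As a slope over all 16 Ex4 libraries with these terms, Hes5 passed as well, at 0.18 (adjusted p = 0.0141).

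Across the transcriptome the second cycle differed from the first in many genes by small amounts. Of 11831 genes tested, 1953 were higher in the second window (16.5%) and 1890 lower (16%), which is 32.5% in either direction. The counts of the gene lists below are to be read against these shares. The median size of the log2 difference was 0.09 over all genes tested and 0.18 over the genes that passed. Changes of at least 1.5-fold were found in 62 genes that rose (0.524%) and 99 that fell (0.837%). Of these, 6 rose and 10 fell by at least 2-fold. Of the 161 genes changed by at least 1.5-fold, 124 had a mean under 5 CPM, and with at least 5 CPM required 25 rose and 17 fell by that much. Every library of the second window lay above every library of the first for 697 genes (5.89%) and below for 564 genes (4.77%). The leading principal component, with 39.0% of the variance, ran from -16.8 to -2.68 in the first window and from 6.24 to 13.85 in the second. The libraries of a window are dishes at successive times, not replicates of 1 time point. The spread behind each p-value therefore holds drift and cycling within a window, and the p-values measure nothing beyond that spread.

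The genes that rose most have different functions. Slc16a3, which encodes the lactate exporter MCT4 (chr11:120948480-120960868, plus strand, GRCm38), ran from 15.4 to 27.6 CPM (median 19.3) in the first window and from 28.2 to 52.9 CPM (median 46.5) in the second. Its ranges did not overlap, and the rise was 2.13-fold (log2 1.09 ± 0.12, adjusted p = 1.71e-06). At 405 min, after both windows, Slc16a3 stood at 73.4 CPM. Ism1, a secreted protein also known as isthmin, had 10.5 to 16.1 CPM and then 21.6 to 27.2 CPM, without overlap, and rose by 0.89 ± 0.08 on the log2 scale (adjusted p = 1.12e-07). Cstf3, a subunit of the complex that cleaves pre-mRNA 3′ ends, climbed from 41.7 to 52.1 CPM in the first window to 74.4 to 92.4 CPM in the second, again without overlap. Its log2 change was 0.85 ± 0.05 (adjusted p = 3.94e-10).

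The other 9 of the 12 leading genes rose by 0.68 to 0.83 on the log2 scale. Ddx58, the cytosolic RNA sensor RIG-I, went from 12.0 ± 1.78 to 21.2 ± 3.33 CPM (SD, n = 7 and 6), and the synaptotagmin Syt13 from 10.6 ± 2.48 to 18.2 ± 2.18 CPM. Tenm4, a teneurin of the cell surface, had 50.2 to 75.4 CPM in the first window and 78.8 to 114 CPM in the second. Nfam1, an immune receptor with an activation motif, rose from 27.9 ± 3.52 to 46.7 ± 6.87 CPM, and the neurotrophin receptor Ngfr from 24.4 ± 5.79 to 39.3 ± 3.14 CPM. Sost, the secreted Wnt inhibitor sclerostin, rose from 5.71 ± 1.35 to 9.14 ± 0.644 CPM. For these 6 genes and for the protein kinase C gene Prkca the windows did not overlap. They did overlap for the LIM cofactor Ldb2 and for Bnip3, a mitochondrial receptor of mitophagy. Exons of Prkca overlap those of Apoh on the opposite strand, so its counts are uncertain where the counting ignored strand.

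Slc16a3 and Bnip3 belong to the hypoxia-inducible genes, which HIF factors activate in many cell types through sites with a core such as ACGTG. In the list of hypoxia-inducible genes outside glycolysis, 12 of 32 tested members rose and 4 fell, with a median log2 difference of 0.12, against 16.5% risen, 16% fallen and a median of -0.0013 over all genes tested. Bnip3 went from 12.1 to 21.8 CPM in the first window to 16.9 to 29.5 CPM in the second (log2 change 0.69 ± 0.11, adjusted p = 0.000127). P4ha1, a collagen prolyl hydroxylase, rose by 0.37 ± 0.05 (adjusted p = 3.55e-05), and the histone demethylase Kdm3a by 0.20 ± 0.03 (adjusted p = 0.000106). Ddit4, another HIF target, had a difference of -0.03 and did not pass.

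The 250 bases upstream of the start of 4 of these genes are shown because they rose together and carry that motif. They are from RefSeq (GRCm38.p6), with every ACGTG in capitals, read on either strand. The Slc16a3 window lies at chr11:120948817-120949066 (plus strand) and holds 2 matches. The Bnip3 window lies at chr7:138909507-138909756 (minus strand), where 1 palindrome counts once on each strand, giving 2. The P4ha1 window at chr10:59323046-59323295 (plus strand) holds 1 match, and the window of the upstream start of Ldha at chr7:46845554-46845803 (plus strand) holds 5, with 2 palindromes among them. A second start of Ldha in the same table had 0 matches.
Slc16a3: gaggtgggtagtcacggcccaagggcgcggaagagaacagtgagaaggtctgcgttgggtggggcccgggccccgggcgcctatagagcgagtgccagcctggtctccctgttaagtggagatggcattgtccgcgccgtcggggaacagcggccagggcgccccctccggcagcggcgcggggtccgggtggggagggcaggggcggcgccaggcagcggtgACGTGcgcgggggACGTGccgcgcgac
Bnip3: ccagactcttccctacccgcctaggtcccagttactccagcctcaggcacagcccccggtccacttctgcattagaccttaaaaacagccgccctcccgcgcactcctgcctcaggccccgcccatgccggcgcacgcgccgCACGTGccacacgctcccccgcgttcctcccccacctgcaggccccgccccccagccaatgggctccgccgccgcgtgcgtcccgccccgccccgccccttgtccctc
P4ha1: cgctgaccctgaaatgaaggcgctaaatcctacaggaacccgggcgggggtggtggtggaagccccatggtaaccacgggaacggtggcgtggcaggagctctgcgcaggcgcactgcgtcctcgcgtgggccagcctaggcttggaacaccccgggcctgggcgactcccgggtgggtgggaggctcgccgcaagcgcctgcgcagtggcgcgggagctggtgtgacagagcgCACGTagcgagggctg
Ldha: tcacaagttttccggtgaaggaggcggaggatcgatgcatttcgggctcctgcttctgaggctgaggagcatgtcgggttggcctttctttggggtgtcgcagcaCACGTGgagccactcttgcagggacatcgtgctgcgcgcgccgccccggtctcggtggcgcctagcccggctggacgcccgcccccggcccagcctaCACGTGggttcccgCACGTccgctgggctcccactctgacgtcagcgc
The motif stood in 16.57% of the 32851 promoters in the table, in 25.5% of the 9378 tested genes that have one, and in 15 of 24 members of the hypoxia list (62.5%). Among those members it stood in 7 of 10 that had risen and in 8 of 14 that had not. A match describes the letters of the window, and neither binding nor its part in the change was measured.

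Glycolytic genes shifted upwards by small steps. Of 24 members, 13 rose, 3 fell and 8 did not pass, and the median log2 difference was 0.13. Ldha, the enzyme that makes lactate from pyruvate, rose by 0.20 ± 0.03 (adjusted p = 0.000224), and its window ranges overlapped. Slc16a1, another lactate transporter gene, was lower in the second window, unlike Slc16a3. It had 362 to 412 CPM in the first window and 337 to 353 CPM in the second, and 412 CPM at 405 min. Slc2a1, the main glucose importer, moved the other way, from 746 to 883 CPM in the first window to 642 to 747 CPM in the second, and fell by 0.25 on the log2 scale (SE 0.04, adjusted p = 0.000166). Only 6 of 76 nuclear genes of oxidative phosphorylation rose and 4 fell, a share below that of all genes tested. Of 8 mitochondrially encoded genes, 4 fell and 0 rose, among them mt-Nd2, a subunit of complex I, which fell by 0.28 (SE 0.07, adjusted p = 0.00413). That call was lost when a slope over all 16 Ex4 libraries was tested instead (adjusted p = 0.328), and at 405 min mt-Nd2 stood at 572 CPM.

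Among the genes that fell, the caudal factor Cdx1, which specifies posterior identity and is a Wnt target, had the largest log2 change of the genes named here. It went from 4.22 to 7.12 CPM (median 5.59) in the first window to 1.44 to 2.63 CPM (median 1.945) in the second, without overlap. The fall was 2.86-fold (log2 -1.52 ± 0.15, adjusted p = 4.07e-07). Fst, the activin antagonist follistatin (chr13:114452290-114458951, minus strand), spanned 87.6 to 146 CPM (median 119) and then 43.8 to 79.0 CPM (median 51.3). It fell 2.04-fold without overlap (log2 -1.03 ± 0.13, adjusted p = 7.18e-06). The library at 405 min lay below every window library for both genes, at 1.26 CPM for Cdx1 and 39.6 CPM for Fst.

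Several other leading genes that fell are linked to the epiblast. Pou5f1, which encodes the pluripotency factor Oct4 (chr17:35506018-35510772, plus strand), had 57.7 to 84.3 CPM (median 72.0) in the first window and 36.4 to 49.9 CPM (median 38.7) in the second. Its windows did not overlap, and the log2 change was -0.79 ± 0.08 (adjusted p = 4.72e-07). L1td1, an RNA-binding protein of pluripotent cells, fell by 0.78 (SE 0.09). Cdh1, the epithelial cadherin (chr8:106603351-106670246, plus strand), had 73.7 to 104 CPM (median 91.5) and then 47.4 to 68.8 CPM (median 51.3), also without overlap. Its log2 change was -0.70 ± 0.08 (adjusted p = 2.98e-06). In bulk RNA, fewer cells that express such a gene and less RNA in each of them cannot be told apart.

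The metallothioneins, which bind zinc and other metals, fell as well. Mt2 went from 15.1 to 21.0 CPM to 6.18 to 14.1 CPM, without overlap (log2 -0.80 ± 0.12, adjusted p = 5.26e-05), and Mt1 from 11.6 to 19.4 CPM to 6.02 to 12.6 CPM, with overlap (log2 -0.69 ± 0.12, adjusted p = 0.000224). Slc39a10, a zinc importer, rose by 0.28 ± 0.05 (adjusted p = 8.86e-05). Of the remaining leading genes, the lipase Lpl fell by 0.74, the ligand Wnt8a by 0.63, the kinase gene Map3k15 by 0.67, Lzts3 by 0.63, the lysosomal transporter gene Slc46a3 by 0.61 and Cdc42ep1, an effector of Cdc42, by 0.60, all on the log2 scale. Exons of Map3k15 overlap those of Pdha1, and exons of Cdc42ep1 those of Lgals2, on the opposite strand.

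**Figure D2:**
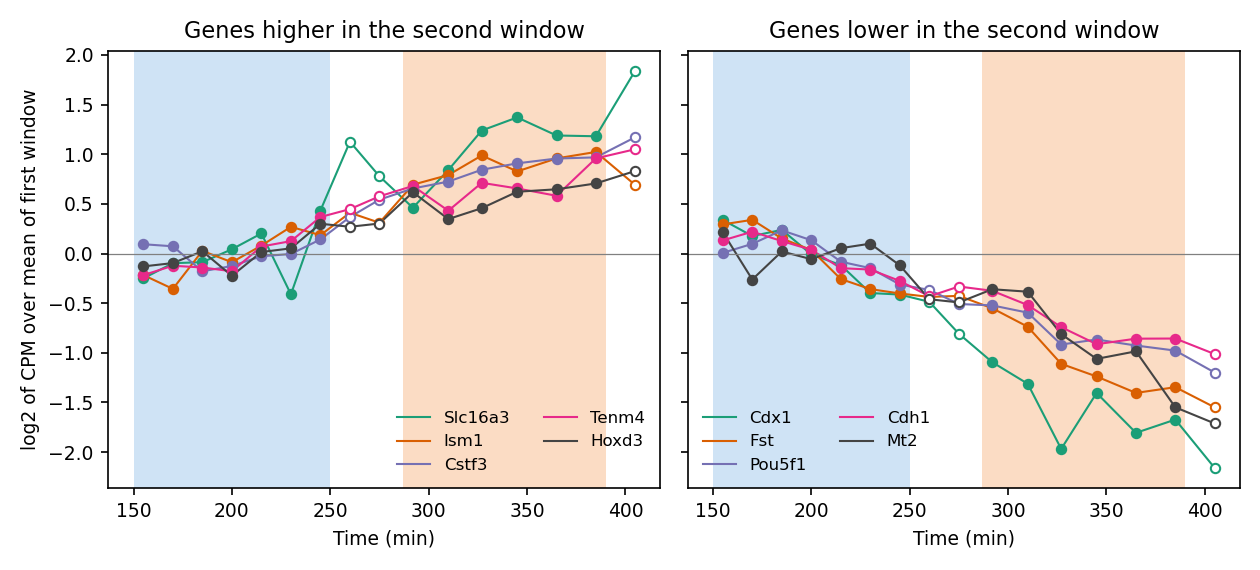
log2 of the CPM level over the mean of the first window (y axis) against time in min (x axis) for 5 genes that rose (left) and 5 that fell (right) in Ex4, with windows shaded and libraries outside them as open circles. The libraries at 260 and 275 min mostly lie between the windows, with Slc16a3 at 44.7 CPM at 260 min as an exception.

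Pluripotency genes fell only in part. Of 14 tested members, 6 fell, 2 rose and 6 did not pass, against 16% fallen and 16.5% risen over all genes tested. Besides Pou5f1 and L1td1, the zinc finger factor Sall4 fell by 0.24 (SE 0.03, adjusted p = 1.03e-05), and Sox2, a factor shared by pluripotent and neural cells, went from 31.2 ± 2.61 to 25.5 ± 2.67 CPM (log2 -0.29 ± 0.06, adjusted p = 0.00135). The members that rose were the DNA methyltransferases Dnmt3a and Dnmt3b, with Dnmt3a up by 0.13 ± 0.03 (adjusted p = 0.00318) and Dnmt3b by 0.09 ± 0.03 (adjusted p = 0.0186). The call of Dnmt3b was lost when the spread was shared with Ex5 (adjusted p = 0.0605).

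Epithelial genes were lower in the second window. Of 19 tested, 11 fell, 1 rose and 7 did not pass, and their median log2 difference of -0.25 was the lowest of the lists with at least 10 tested members. Epcam, an epithelial adhesion protein, had 37.2 to 42.9 CPM and then 27.5 to 34.5 CPM, without overlap, a log2 change of -0.36 ± 0.05 (adjusted p = 2.04e-05). The member that rose was Lama1, a laminin chain of basement membranes, by 0.44 ± 0.07 (adjusted p = 9.45e-05). Mesenchymal genes moved the other way, with 9 of 18 risen, 1 fallen and a median of 0.15. Cdh2, the neural cadherin that mesoderm takes up in place of Cdh1, rose from 177 to 191 CPM to 195 to 241 CPM, without overlap (log2 0.22 ± 0.04, adjusted p = 0.000226). The growth factor receptor Pdgfra rose by 0.19 ± 0.03 (adjusted p = 0.000212), while Sparc, a matrix protein, fell by 0.40 (SE 0.05, adjusted p = 3.48e-06). Vim, the mesenchymal filament vimentin, had a difference of 0.06 that did not pass.

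**Figure D3:**
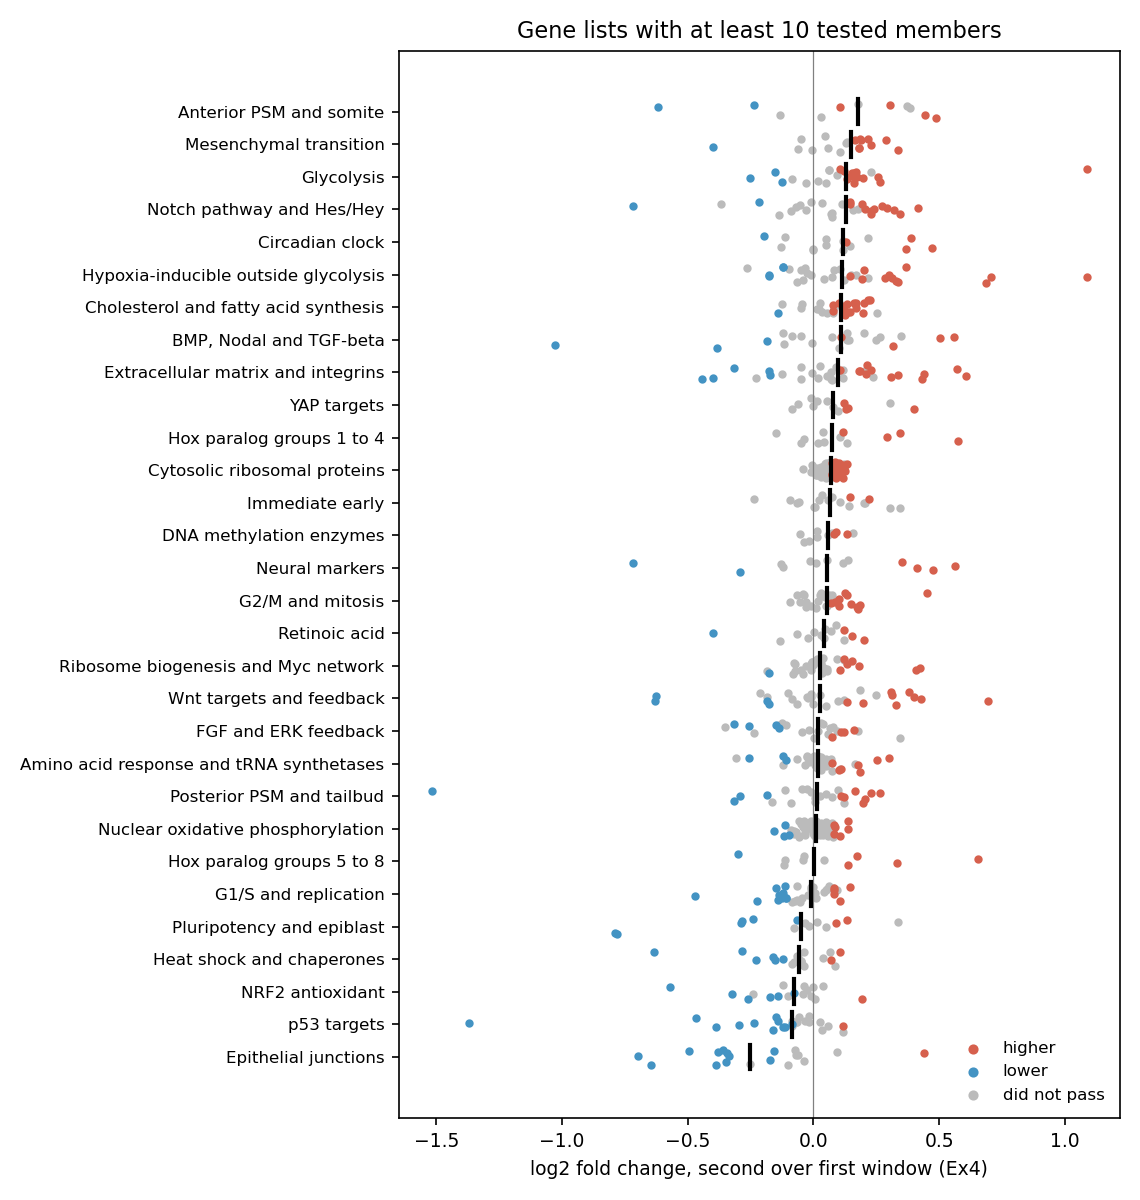
log2 fold change of the second over the first window (x axis) for every tested member of the gene lists with at least 10 tested members (rows), coloured by whether the gene passed the test as higher or lower, with the list median as a black bar. The epithelial list has the lowest median (-0.25), and the anterior PSM and somite list the highest (0.18).

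Posterior PSM genes moved in both directions, by small amounts apart from Cdx1. T, the brachyury factor of the tailbud, had 616 to 717 CPM in the first window and 631 to 678 CPM in the second, and its difference of 0.0062 ± 0.03 did not pass (adjusted p = 0.902). The sign of so small a value turned when 1 library was left out, to between -0.00761 and -0.00201 without the library at 155, 215, 230 or 292 min. Tbx6, the T-box factor that commits cells to paraxial mesoderm, rose from 354 to 440 CPM to 461 to 490 CPM, without overlap (log2 0.26 ± 0.04, adjusted p = 2.78e-05). Msgn1, a bHLH factor of the posterior PSM, had a difference of 0.10 ± 0.05 that did not pass (adjusted p = 0.176) and passed without the library at 155 min, at 0.13 (adjusted p = 0.0444), and with clock terms at the Ex4 period (adjusted p = 0.0469). Over the posterior list, 7 of 24 members rose, 4 fell and 13 did not pass, with a median of 0.016. Among all genes tested 16.5% rose and 16% fell, so the fallen share of the list is near that of all genes. Nkx1-2, a homeobox gene of tailbud progenitors, fell by 0.29 (SE 0.05, adjusted p = 0.000115), Wnt3a by 0.19 (SE 0.04, adjusted p = 0.000451) and Fgf4 by 0.32 (SE 0.07, adjusted p = 0.00147).

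Fgf8, the main FGF ligand of the tailbud, did not pass, with 64.6 to 78.5 CPM and then 66.6 to 76.8 CPM (log2 -0.05 ± 0.05, adjusted p = 0.45). As a slope over all 16 Ex4 libraries with clock terms, Fgf8 passed at -0.10 (adjusted p = 0.0335). The calls of 2 retinoic acid enzymes also depended on the fit, and neither passed in the comparison as made here. Cyp26a1, which degrades retinoic acid in the tailbud, had 27.7 to 33.3 CPM and then 27.9 to 36.6 CPM (log2 0.12 ± 0.06, adjusted p = 0.119), and passed at 0.17 without the library at 292 min. It also passed with clock terms (adjusted p = 0.0235) and as a slope over all 16 libraries (adjusted p = 0.00204). Aldh1a2, which makes retinoic acid in somites and anterior PSM, had 60.6 to 73.8 CPM and then 52.8 to 69.3 CPM (log2 -0.13 ± 0.05, adjusted p = 0.0648), and without the same library it passed at -0.19. Aldh1a2 also passed with clock terms (adjusted p = 0.0134), as a slope (adjusted p = 0.000855) and at equal depth (adjusted p = 0.0341).

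Genes of the anterior PSM and somites differed widely in level. Means over the 13 libraries were 124 CPM for the Eph receptor gene Ephb2 and 41.6 CPM for Foxc1, against 1.88 CPM for Meox1. Of 26 in the list, 11 were tested, of which 4 rose and 2 fell, with a median of 0.18. Among all genes tested 16.5% rose and 16% fell. Meox1, a somite homeobox gene, stood at a mean of 1.63 CPM in the first window, and its difference of 0.39 ± 0.18 did not pass (adjusted p = 0.1), but passed without the library at 230 min, at 0.53, and as a slope over all 16 libraries (adjusted p = 0.047). Eya1, a cofactor of homeobox proteins, rose from 3.24 to 4.46 CPM to 4.58 to 5.74 CPM, without overlap (log2 0.49 ± 0.09, adjusted p = 0.000332). Foxc1, a forkhead factor of paraxial mesoderm, rose by 0.31 ± 0.09 (adjusted p = 0.0101), a call that a robust fit did not keep (adjusted p = 0.0572). Efnb2, an ephrin of segment borders, fell by 0.24 (SE 0.05, adjusted p = 0.000772).

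Notch genes were more often higher than lower in the second window. Of 28 tested, 12 rose, 2 fell and 14 did not pass, and the median was 0.13, against 16.5% risen and 16% fallen over all genes. In Ex5 7 of the list rose and 7 fell (median 0.05). Both Delta ligands of the PSM rose. Dll1 had 615 to 726 CPM in the first window and 744 to 838 CPM in the second (log2 0.21 ± 0.04, adjusted p = 0.000229), and Dll3 had 356 to 454 CPM and then 461 to 518 CPM (log2 0.23 ± 0.05, adjusted p = 0.000848). Neither gene's windows overlapped. The receptor Notch3 rose by 0.23 ± 0.04 (adjusted p = 0.000159) and the coactivator Maml3 by 0.32 ± 0.04 (adjusted p = 1.33e-05).

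In the Wnt list, 9 of 29 members rose and 4 fell, with a median of 0.024, against 16.5% risen and 16% fallen over all genes tested. In Ex5 6 of the list rose and 7 fell (median -0.0041). The risen members included some feedback inhibitors of the pathway. Other inhibitors in the list, such as Notum (-0.10), Dkk1 (-0.18), Rnf43 (0.18) and Znrf3 (0.10), did not pass. Nkd1, which binds Dishevelled, went from 75.7 to 94.1 CPM to 107 to 119 CPM, without overlap (log2 0.40 ± 0.04, adjusted p = 1.59e-06). Sfrp1, a secreted Wnt antagonist, rose by 0.38 ± 0.05 (adjusted p = 8.89e-06) and Apcdd1, a membrane inhibitor, by 0.33 ± 0.05 (adjusted p = 2.37e-05). The receptor gene Tnfrsf19 rose by 0.31 ± 0.03 (adjusted p = 8.62e-08) and the transcription factor Lef1 by 0.20 ± 0.03 (adjusted p = 0.000141), whereas both ligands named above, Wnt3a and Wnt8a, fell.

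In the FGF list 4 of 25 rose and 4 fell, with a median of 0.019, shares near the 16.5% and 16% of all genes tested. Spred1, an inhibitor of ERK signalling, fell by 0.26 (SE 0.04, adjusted p = 4.81e-05), while Il17rd, another ERK antagonist, rose by 0.16 ± 0.04 (adjusted p = 0.0017). In the BMP, Nodal and TGF-β list 4 of 21 rose and 3 fell, with a median of 0.11, again near those shares. Bmp2 rose from 5.89 to 7.13 CPM to 7.90 to 10.5 CPM and Bmp7 from 54.9 to 68.5 CPM to 68.6 to 80.8 CPM, both without overlap. Their log2 changes were 0.50 ± 0.08 (adjusted p = 4.07e-05) and 0.32 ± 0.05 (adjusted p = 7.51e-05). Id2, a target of BMP signalling, rose by 0.56 ± 0.07 (adjusted p = 9.68e-06).

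Hox genes, which give cells their position along the body axis, rose more often than they fell. Over all 26 tested, 12 rose, 1 fell and 13 did not pass, with a median of 0.11. In Ex5 5 of them rose and 7 fell (median 0.0091). By paralog group, 4 of 12 rose in groups 1 to 4, 4 of 10 in groups 5 to 8 and 4 of 4 in group 9, where the median was 0.51. Hoxa9 went from 1.61 to 2.48 CPM to 2.83 to 4.05 CPM, without overlap (log2 0.63 ± 0.12, adjusted p = 0.000427). Hoxd9 had 2.95 to 4.38 CPM and then 4.35 to 6.96 CPM, with overlap (log2 0.60 ± 0.11, adjusted p = 0.00049). Hoxc9 rose by 0.42 ± 0.09 (adjusted p = 0.000926) and Hoxb9 by 0.13 ± 0.03 (adjusted p = 0.00175). Hoxa5 was the member that fell, by 0.30 (SE 0.07, adjusted p = 0.00192).

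The sorting of Hox genes by cluster was made after their values had been seen, so it is a description. In the D cluster 4 of 5 rose (median 0.58) and in the C cluster 4 of 5 (median 0.17). In the A cluster 2 of 7 rose and 1 fell (median 0.04), and in the B cluster 2 of 9 rose and 0 fell (median -0.04). Hoxd3 rose from 20.7 to 29.8 CPM to 30.8 to 39.5 CPM, without overlap (log2 0.58 ± 0.07, adjusted p = 2.44e-06). Hoxd8 rose by 0.66 ± 0.11 (adjusted p = 9.64e-05), Hoxc6 by 0.33 ± 0.04 (adjusted p = 4.6e-06), Hoxb3 by 0.35 ± 0.05 (adjusted p = 6.01e-05) and Hoxd4 by 0.29 ± 0.07 (adjusted p = 0.00206). Hoxb8 had a difference of -0.04 that did not pass. Hoxd3 and Hoxd4 share exons on the same strand, so their counts are uncertain.

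**Figure D4:**
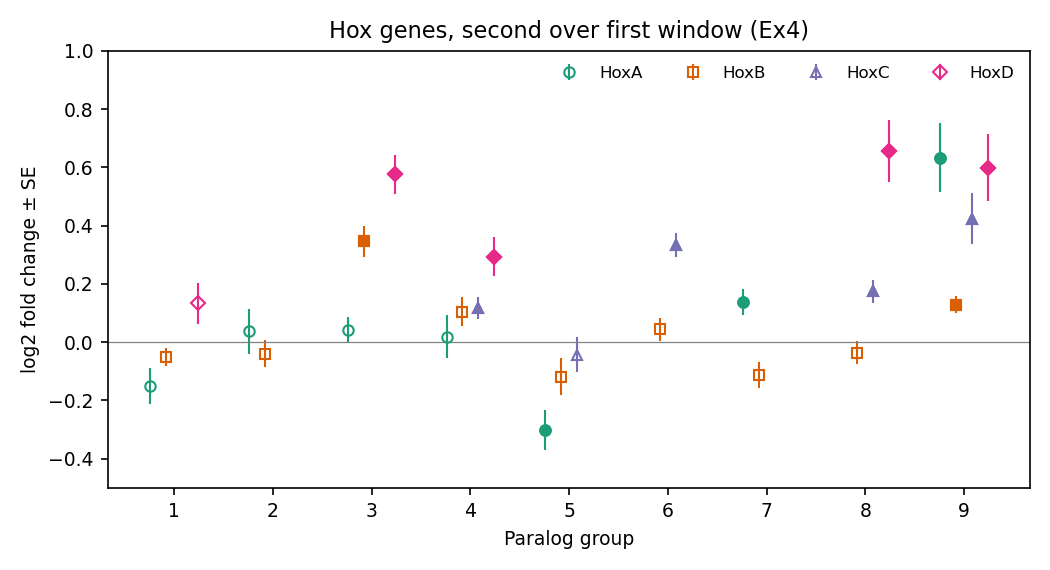
log2 fold change of the second over the first window with its SE (y axis) for the 26 tested Hox genes by paralog group (x axis) and cluster (symbol), filled where the gene passed the test. All 4 tested genes of group 9 are filled and above 0, and Hoxa5 is the filled symbol below 0.

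Cholesterol and fatty acid synthesis genes rose more often than they fell, with 17 of 30 genes higher, 1 lower and a median of 0.11 in Ex4. In Ex5 7 of the list rose and 7 fell (median 0.022). Lss, which closes the sterol ring, went from 189 to 205 CPM to 226 to 234 CPM (log2 0.22 ± 0.03, adjusted p = 2.82e-06). Srebf2, the master regulator of the pathway, rose by 0.17 ± 0.03 (adjusted p = 7.5e-05), Nsdhl by 0.22 ± 0.04 (adjusted p = 0.000163) and Acly, which supplies acetyl-CoA, by 0.16 ± 0.03 (adjusted p = 0.000308). The windows did not overlap for Lss, Srebf2 and Acly. Of 79 cytosolic ribosomal protein genes, 29 rose and 0 fell with a median of 0.07, and in none of them did the estimate exceed 0.13. Rpl10a rose by 0.12 ± 0.03. Genes of this kind have pseudogene copies that can take reads, so single values are uncertain.

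The p53, NRF2 and heat shock lists leaned downwards. Of 24 p53 targets, 11 fell and 1 rose, with a median of -0.09. The member that rose, named after its value was seen, was Trp53 itself (0.12 ± 0.03). Trp53inp1, a p53-induced nuclear protein, fell from 87.0 to 97.5 CPM to 73.6 to 78.8 CPM (log2 -0.30 ± 0.03, adjusted p = 2e-06), and Pmaip1, the apoptosis gene Noxa, from 32.0 to 40.0 CPM to 25.9 to 30.7 CPM (log2 -0.39 ± 0.05, adjusted p = 1.46e-05). The windows of both were apart. Perp, a desmosome-linked p53 target, fell by 0.47 (SE 0.07, adjusted p = 3.63e-05), and Trp73, which encodes p73, by 1.37 (SE 0.26, adjusted p = 0.000404) from a level of 1.52 ± 0.294 CPM. Trp73 had 1.02 to 1.89 CPM in the first window and 0.26 to 1.15 CPM in the second. It passed the expression filter mainly through the first window, so its fall is no separate support for that of the list. In the NRF2 antioxidant list 6 of 17 fell and 1, the glutathione conjugate exporter gene Abcc1, rose by 0.19 ± 0.03. Srxn1, sulfiredoxin, fell by 0.57 (SE 0.09, adjusted p = 8.03e-05) and Gclm, a subunit of the enzyme that limits glutathione synthesis, by 0.32 (SE 0.04, adjusted p = 9.44e-06). Of 20 heat shock genes 6 fell and 2 rose, against 16% and 16.5% of all genes tested. Hsph1 fell by 0.23 (SE 0.03, adjusted p = 8.89e-06).

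Genes of the cell cycle phases had different counts. In the G1/S and replication list 10 of 35 fell and 5 rose, with a median of -0.0097, against 16% and 16.5% of all genes tested. Cyclin E, which drives entry into S phase, fell in both its genes, with Ccne1 down by 0.23 (SE 0.03, adjusted p = 4.66e-05) and Ccne2 down by 0.47 (SE 0.08, adjusted p = 9.28e-05). In the G2/M list 11 of 31 rose and 0 fell, with a median of 0.05. Cdc20, an activator of the anaphase-promoting complex, rose by 0.19 ± 0.04 (adjusted p = 0.000435), the checkpoint gene Bub1b by 0.18 ± 0.04 (adjusted p = 0.000769), the centromere histone gene Cenpa by 0.18 ± 0.03 (adjusted p = 0.000432) and the phosphatase Cdc25b by 0.45 ± 0.09 (adjusted p = 0.00046). Exons of Ccne2, Cdc20 and Cdc25b overlap genes on the opposite strand. In the ribosome biogenesis and Myc network list 7 of 35 rose and 1 fell, against 16.5% and 16% of all genes tested. The risen genes included the Myc antagonists Mxd4 (0.42 ± 0.06) and Mnt (0.41 ± 0.06).

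Of 34 genes of the extracellular matrix and integrins, 12 rose and 5 fell (median 0.10), against 16.5% and 16% of all genes tested. Fbn2, a fibrillin of embryonic microfibrils, rose from 20.1 to 27.7 CPM to 27.3 to 40.7 CPM, with overlap (log2 0.57 ± 0.08, adjusted p = 2.01e-05), and the integrin chain Itgb5 from 110 to 142 CPM to 160 to 180 CPM, without overlap (log2 0.43 ± 0.05, adjusted p = 2.05e-06).

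The libraries outside the windows give the levels of these genes before and after the second cycle. In the library at 260 min, which the comparison did not use, 82.5% of the genes higher in the second window and 76.9% of those lower lay between the 2 window means. Their median position was 0.54 and 0.49 of the way from the first mean to the second. At 275 min the medians were 0.59 and 0.63. The genes were picked by the difference of the same window means. Where such a difference arose from spread alone, a library left out would also be expected near the middle. These positions are therefore a description and no evidence of a steady change. At 405 min the genes that changed by at least 1.5-fold stood at 1.22 (higher) and 1.05 (lower) of that distance, but all genes that passed stood at 0.87 and 0.69. That library also had the highest share of mitochondrially encoded counts in Ex4, 0.682%, against 0.324 to 0.558% in the windows, and the part of this share in its values was not tested. Within the first window 81.0% of the genes called higher sloped upwards, against 49.8% of all genes tested, and within the second window 68.6%, against 49.1%. Of the genes called lower, 77.1% sloped downwards in the first window, against 50.2% of all genes tested, and 67.9% in the second, against 50.9%. The slopes come from the same libraries whose means picked these genes, so they too are a description and no evidence of a steady change.

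The Ex5 course, with windows from 165 to 255 min (7 libraries) and 305 to 385 min (5 libraries), called 2056 genes higher (17.4%) and 2016 lower (17%). These windows lay earlier on the Hes7 cycle than those of Ex4. The fitted first Hes7 peak came at 237 min in Ex5 and at 212 min in Ex4. In both Ex5 windows Hes7 was highest in the last library, at 372 CPM (255 min) and 437 CPM (385 min). The part of this offset in the differences between the courses was not tested for single genes. Of the genes called in Ex4, 46.6% were called in the same direction in Ex5, and these made up 43.9% of the Ex5 calls. Only 103 genes were called in opposite directions. The share was larger among big changes, with 44 of the 62 genes that rose at least 1.5-fold in Ex4 called higher in Ex5 and 76 of the 99 that fell called lower. Across the genes tested, which are not independent replicates, the log2 fold changes of the 2 courses had a Pearson r of 0.656 and a Spearman rho of 0.579. Slc16a3 rose by 0.76 in Ex5, Ism1 by 0.92 and Tenm4 by 0.88, and Cdx1 fell by 1.93, Cdh1 by 0.95 and Pou5f1 by 0.70.

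In Ex5, 14 of 19 epithelial genes fell and 1 rose, and 10 of 24 p53 targets fell and 1 rose. Of 18 mesenchymal genes 4 rose and 1 fell, of 24 glycolytic genes 8 rose and 4 fell, and of 34 matrix and integrin genes 5 rose and 9 fell. Whether the counts differ between the courses was not tested.

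The test of the difference between the courses passed for 531 genes with a larger log2 change in Ex5 (4.49%) and 676 with a smaller one (5.71%). Several tailbud genes were among the landmark genes for which it passed. T, which did not pass in Ex4, fell in Ex5 by 0.27 on the log2 scale, and the difference of -0.28 ± 0.05 passed (adjusted p = 0.000789). Wnt3a changed by -0.19 in Ex4 and -0.58 in Ex5 (difference -0.39 ± 0.07, adjusted p = 0.000303). Fgf8 changed by -0.05 and -0.29 (adjusted p = 0.0189 for the difference), Cyp26a1 by 0.12 and -0.27 (adjusted p = 0.0126) and Msgn1 by 0.10 and -0.27 (adjusted p = 0.0338). Tbx6 changed by 0.26 and 0.24, and its difference did not pass (adjusted p = 0.904).

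Group 9 Hox genes rose in Ex4, while 0 of the 4 passed in Ex5, where their median was 0.04. The difference itself passed for Hoxd9 (-0.64, adjusted p = 0.00649) and Hoxb9 (-0.20, adjusted p = 0.0126) and not for Hoxa9 (adjusted p = 0.678) or Hoxc9 (adjusted p = 0.137). Among genes with the smallest p-values for the difference was Cars, which charges tRNA with cysteine, at 0.0095 in Ex4 and -0.46 in Ex5. Aldh18a1, an enzyme of proline synthesis, rose by 0.18 in Ex4 and fell by 0.27 in Ex5 (difference -0.45 ± 0.05, adjusted p = 2.26e-06). Pald1 and the receptor gene Tnfrsf1b had Ex4 values of 0.06 and 0.03 that did not pass, and both fell in Ex5, by 0.45 and 0.57. The actin-linked gene Rai14 rose by 0.10 in Ex4 (adjusted p = 0.0418) and fell by 0.33 in Ex5. The Ex4 call of Rai14 was lost without the library at 155, 170 or 185 min or any 1 of the 6 libraries of the second window, with adjusted p up to 0.087.

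**Figure D5:**
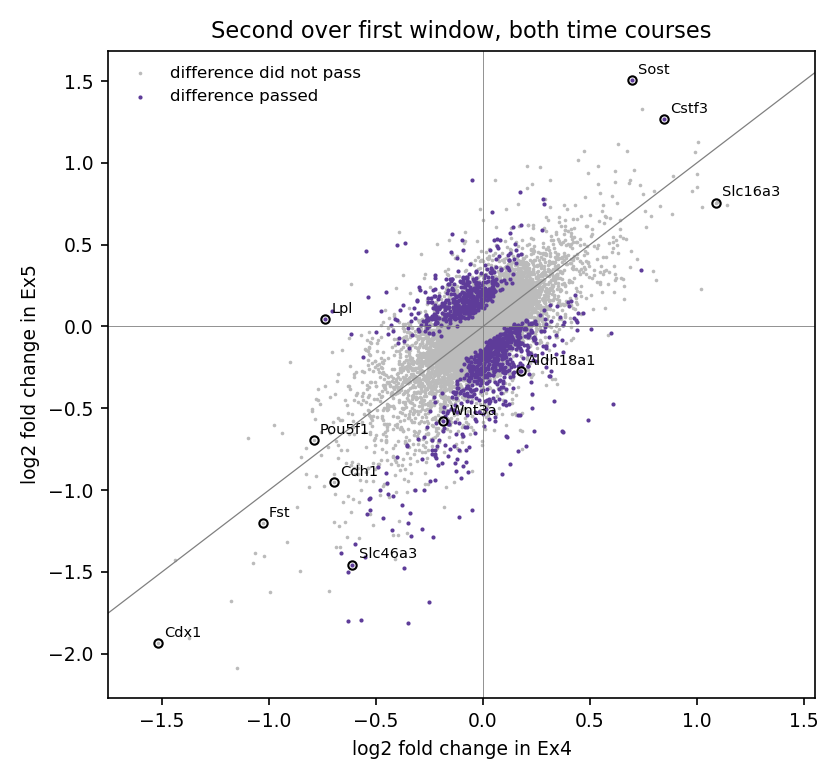
log2 fold change of the second over the first window in Ex5 (y axis) against Ex4 (x axis) for the 11831 genes tested, purple where the difference between the courses passed, with the line of equality and named genes circled. Cdx1, Fst, Cdh1 and Pou5f1 lie low on both axes, Slc16a3, Cstf3 and Sost lie high, and Wnt3a lies below the line.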

How the data were processed

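Polyadenylated RNA was sequenced from 32 dishes of cultured mouse PSM cells, of which the 13 Ex4 window libraries are compared here. Per the labels' protocols, libraries were made from 200 ng total RNA with a stranded mRNA kit. The authors deposited raw read counts per gene symbol, made on mm10 with HTSeq 0.6.1 after HISAT2 2.1.0 alignment, with cutadapt 1.14 and bcl2fastq 2.17.1.14 also named, per the submitters' processing notes. Which annotation and strand option HTSeq used is not given in the sources used here. The table has 21886 genes, 3706 of them at 0 in all libraries, and no pair of libraries was identical (0 pairs).

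CPM used TMM factors from all 32 libraries. Genes reaching 1 CPM in 6 or more of the 13 libraries, 11831 in all, were tested with edgeR 4.0.16 (R 4.3.3, quasi-likelihood, adjusted p under 0.05). Folds come from the fit, and each SE from the log2 change and the F statistic. The same fit was made for Ex5, and the difference was tested over the 25 libraries of both courses. The Hes7 period was searched from 90 to 240 min. Gene positions are from GENCODE on GRCm38, the assembly behind mm10. The text names the 12 genes that rose most and the 12 that fell most at a mean of 5 CPM or more (predicted gene models left out), up to 4 passing and 2 other members per list, landmark and clock genes, and the 5 smallest p-values for the difference. For 1 list, a member that this rule picks is not reported here. Windows, lists and this rule were chosen with earlier results of these data known, so list counts are no independent evidence. Tested on simulated data with 200 of 11831 genes changed, the Ex4 comparison recovered 78% at 1.2-fold, 94% at 1.5-fold and 100% at 2-fold, with 5.91% of calls false. The test of the difference between the courses recovered 46%, 78% and 98%, with 4.29% of calls false. The simulated libraries were independent, without drift or cycling, and few genes changed, so these shares may not hold for the real windows. Alternatives were DESeq2 1.42.0, limma-voom (limma 3.58.1), other scaling, filters, spreads, depth and windows, clock terms, a slope over time, and each library left out.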

Additional observations from a re-analysis of the deposited data

Results flagged for a closer look

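In 7 of 230 sets of window values, 1 library stood apart from the others of its window by Dixon's criterion, which chance alone meets in about 1 set in 20. In the first window Bnip3 reached 21.84 CPM at 245 min (next highest 14.88) and Aldh1a2 73.84 CPM at 155 min (next 65.05). In the second window Aldh18a1 reached 107.7 CPM at 385 min (next 95.95). The library at 292 min was lowest for Tnfrsf19 at 230.9 CPM (next 245.4), for Bmp7 at 68.61 CPM (next 76.44) and for Slc39a10 at 150.6 CPM (next 162.3). Perp was lowest at 327 min, at 7.502 CPM (next 9.866).

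For 31 of the 115 genes tested and named, the change between windows differed between the courses by the test of the difference itself (edgeR's quasi-likelihood test, adjusted over all genes). Values are the log2 change in Ex5 minus that in Ex4. It was above 0 for Sost (0.80), Lpl (0.78), Slc39a10 (0.50), Pmaip1 (0.49), Cstf3 (0.42) and Sparc (0.30). Lpl, which fell in Ex4, had a change of 0.05 in Ex5 that did not pass, and Sost and Cstf3 rose in both courses. The difference was below 0 for Slc46a3 (-0.84), which fell in both, and for Nfam1 (-0.40), which rose in both.

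Tailbud and Wnt genes below 0 were Wnt3a (-0.39), Cyp26a1 (-0.39), Msgn1 (-0.37), T (-0.28), Nkd1 (-0.27), Fgf8 (-0.24) and Tnfrsf19 (-0.18). The BMP ligands Bmp2 (-0.52) and Bmp7 (-0.28) rose in Ex4 and did not pass in Ex5, and the Hox genes below 0 were Hoxd9 (-0.64), Hoxb9 (-0.20) and Hoxb8 (-0.18). The 5 genes with the smallest p-values were Tnfrsf1b (-0.60), Pald1 (-0.51), Cars (-0.46), Aldh18a1 (-0.45) and Rai14 (-0.43). Also below 0 were Mxd4 (-0.37), Lss (-0.24), Itgb5 (-0.24), Hsph1 (-0.20), Srebf2 (-0.17) and Kdm3a (-0.16).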

How the results depend on the processing

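The counts of genes higher and lower in Ex4 stayed within 1.5 times of 1953 and 1890 under each alternative, and none of the calls reversed sign (0 genes). Leaving out 1 library gave 1607 to 2030 genes higher and 1554 to 1942 lower, 55 to 73 higher and 82 to 124 lower by at least 1.5-fold, 1604 to 2445 higher and 1577 to 2320 lower in Ex5, and 880 to 1598 whose change differed between the courses. The lowest counts of genes higher and lower in Ex4 came without the library at 327 min. The 1.5-fold counts of 62 and 99 moved to 122 and 245 with no filter, and to 25 and 17 with at least 5 CPM, which tests fewer genes of low level. Signs turned only for genes that had not passed: T without the library at 155 min (-0.00761), 215 min (-0.00343), 230 min (-0.00201) or 292 min (-0.00346), Hes7 without the library at 155 min (-0.033), and Cars as a slope over all 16 Ex4 libraries (-0.00871). The cause was not tested. Calls were lost in at least 1 alternative for 4 of 115 genes named and gained for 10. Hes7 was among these 10, as a slope over all 16 Ex4 libraries. Its call carries no weight, since Hes7 set the windows. No paired analysis was possible because the windows are different times of 1 course and share no time point numbers. Each time has 1 dish per course, so changes within the spread of a window were not detectable at this number of libraries.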

Other observations

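Over all genes tested in Ex4, 16.5% rose and 16% fell, and the lists that follow are read against those shares. In the amino acid response and tRNA synthetase list 7 of 37 rose and 3 fell in Ex4 (median 0.019), while in Ex5 2 rose and 18 fell (median -0.08). Of 15 circadian clock genes 4 rose and 1 fell, of 18 immediate early genes 2 rose and 0 fell, and of 13 YAP targets 4 rose and 0 fell. The retinoic acid list had 3 of 14 higher and 1 lower. In Ex5, 52 of the 79 cytosolic ribosomal protein genes and 23 of the 76 nuclear oxidative phosphorylation genes rose, and 0 fell in either list. Whether the list counts differ between the courses was not tested.

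Some genes that changed in the same direction did so from different levels in the 2 courses. The lactate exporter gene Slc16a3 had a first-window mean of 20.5 CPM in Ex4 and 77.2 CPM in Ex5. The metallothionein gene Mt1 stood at 15.7 and 139 CPM, while Fst stood at 116 and 46.2 CPM. These level differences between the courses were not tested here.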
